A study of Oryza sativa with 12 samples.

Results

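The transcripts in embryonic axes of rice seeds stored warm and humid were compared with those of seeds stored humid at room temperature. The comparison used 6 of the 12 arrays of the series: the 3 arrays labelled 40 °C and 0H and the 3 arrays labelled 25 °C and 0H. The other 6 arrays carry the suffix 4H, and they were used to estimate the spread and for one reading at the end. The labels do not define 0H or 4H.

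All seeds were of the cultivar Nipponbare, and the tissue is labelled seed although the protocol describes embryonic axes. Both groups were first equilibrated for 3 days at 85% relative humidity and 25 °C. The 40 °C group then stayed at 85% relative humidity and 40 °C, and the 25 °C group stayed at 85% relative humidity and 25 °C, for 14 days in the protocol text or 15 days in the sample description. Both were then dried for 3 days at 32% relative humidity and 25 °C, so the 25 °C seeds had also been through the humid storage and the drying. The labels do not say whether the 3 replicates of a group came from separate seed lots, so the p-values measure the spread between these arrays, which may be technical. A 45 °C condition named in the labels was not analysed here.

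The embryonic axis is the part of the embryo that becomes root and shoot, and the endosperm, aleurone and scutellum surround or adjoin it. A dry seed keeps messenger RNA that was made during maturation, and such stored RNA is slowly fragmented and lost during storage. Warm and humid storage, often called controlled deterioration or accelerated ageing, is used to shorten seed life in the laboratory. The dry axis makes little new RNA, so a lower or higher signal after storage can reflect the loss, the relative survival or the synthesis of a transcript, and these array signals do not tell them apart. In whole axes, fewer cells of a type and less RNA per cell also cannot be told apart.

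Signals are log2 values per probe set, and a difference of 1 on this scale is a factor of 2. Probe sets were kept where at least 3 of the 12 arrays lay above log2 4, which left 17650 of 57258. That limit is a setting, and no background was measured. If every array of one group fell under log2 4, a difference is written as "at least" the distance of the other group's mean from log2 4. A call means a limma adjusted p under 0.05, two-sided and adjusted over all 17650 probe sets. Probe sets whose identifiers end in _s_at or _x_at can match related transcripts, and a gene is represented by the probe set with its highest mean signal over the 12 arrays.

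The 6 arrays were alike in their overall signal. The array medians lay between 1.53 and 1.59, and 25.5% to 26.2% of all probe sets lay above log2 4. The median SD between replicates was 0.11 in the 40 °C group and 0.14 in the 25 °C group. Of the 8 control measures, some lay apart between the groups and others overlapped. The Gapdh signal from the 3′ end exceeded that from the 5′ end by 3.66 ± 0.29 in the 40 °C arrays and 2.24 ± 0.17 in the 25 °C arrays (log2, SD, n = 3 each), and the Actin difference was 3.33 ± 0.14 in the 40 °C arrays and 2.44 ± 0.06 in the 25 °C arrays. Neither measure overlapped between the groups (exact two-sided permutation p = 0.1 for each, the smallest that 3 against 3 arrays allow; adjusted over 8 measures, 0.16). The other reference transcripts shifted less: the Ubiquitin difference was −0.52 ± 0.04 in the 40 °C arrays and −0.66 ± 0.02 in the 25 °C arrays, without overlap, and the Cyph difference was 0.88 ± 0.13 in the 40 °C arrays and 0.69 ± 0.16 in the 25 °C arrays, with overlap (exact permutation p = 0.1 and 0.3). A larger gap between the 3′ and 5′ ends is a usual sign of fragmented RNA or of shorter amplified product. The 18S rRNA control was 10.17, 10.97 and 7.87 in the 40 °C arrays and 11.88, 11.91 and 11.52 in the 25 °C arrays (log2; exact permutation p = 0.1, adjusted 0.16). The poly-A spike-ins, added before amplification, averaged 8.82, 8.85 and 4.83 in the 40 °C arrays and 4.56, 4.98 and 3.52 in the 25 °C arrays, so replicates 1 and 2 at 40 °C stood above the other 4 arrays while replicate 3 lay within the 25 °C range (exact permutation p = 0.2, adjusted 0.23). The hybridisation controls also overlapped, at 8.53 ± 0.16 in the 40 °C arrays and 9.27 ± 0.55 in the 25 °C arrays (exact permutation p = 0.2). RNA amounts in the labels were 55, 53 and 68 µg for the 40 °C replicates and 26, 32 and 55 µg for the 25 °C replicates. The Gapdh, Actin and rRNA signals moved with the groups at 0H, and their part in the results at 0H was not tested.

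**Figure D1:**
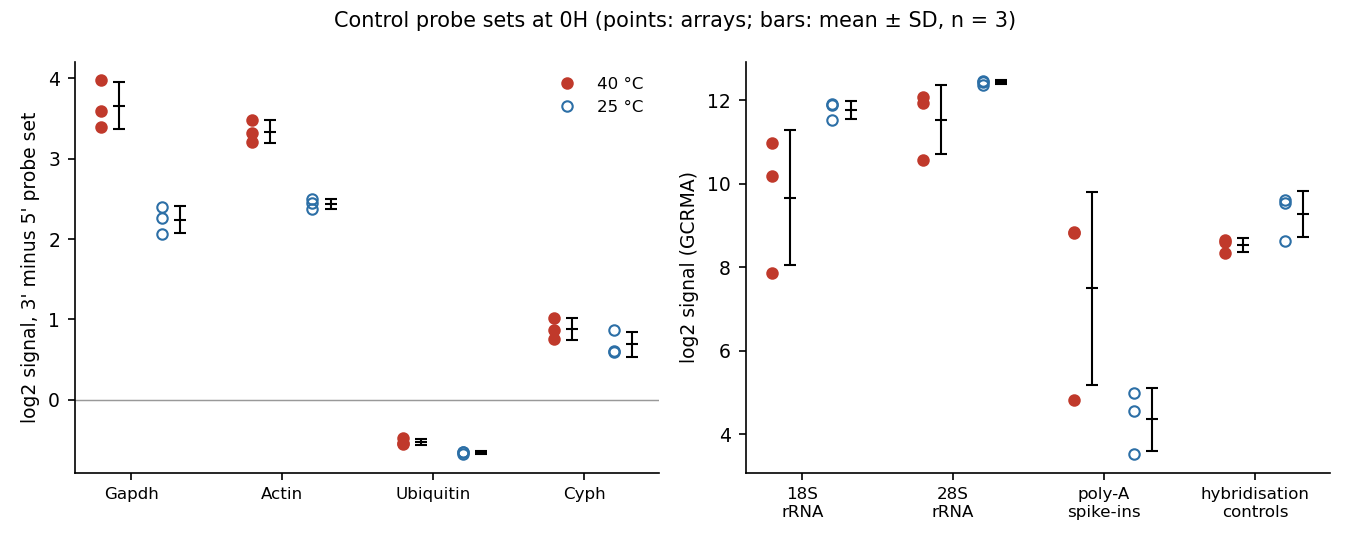
Control probe sets of the 6 arrays at 0H. The left panel plots the log2 signal of the 3′ probe set minus that of the 5′ probe set for 4 reference transcripts, and the right panel the log2 signal of the ribosomal RNA and added control RNAs (points are arrays, 40 °C filled and left, 25 °C open and right; bars are mean ± SD, n = 3). The Gapdh and Actin differences of the 40 °C arrays all lie above those of the 25 °C arrays, and one 40 °C array has the lowest 18S and 28S signals.

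Of the 17650 kept probe sets, 3129 were called (17.7%). At 40 °C 1058 were higher (5.99%) and 2071 were lower (11.7%). Most differences were small: the median size was 0.47 among the higher and 0.57 among the lower probe sets, and 86 higher and 308 lower probe sets differed by more than 2-fold. Both group means lay below log2 4 in 1 of these 86 and in 49 of these 308, so their sizes are fitted values only. In 179 of the called probe sets all 6 arrays lay below log2 4. The share of lower calls was 9.62% among probe sets with a mean signal up to log2 4, 12.1% between 4 and 6, 12.2% between 6 and 8, 12.7% between 8 and 10 and 9.70% above 10, so no level of signal held all of them. Counted by gene, with 1 probe set each, 626 of 11516 genes were higher (5.44%) and 867 were lower (7.53%), and the median change over all genes was 0.00. Of the 1694 genes with a short name, 91 were higher and 163 were lower. Most gene lists below were matched by name, but their counts are set against all 11516 genes, among which lower calls were less frequent. The groups did not overlap, called or not, in 6553 probe sets (37.1%): the 40 °C arrays all lay above in 2832 (16.0%) and all below in 3721 (21.1%). The count of calls depended on single arrays. It was 2079 without 40 °C replicate 2, 2080 without 25 °C replicate 2 and 3472 without 25 °C replicate 3, and the higher calls numbered 589 to 670 without any 1 of the 40 °C arrays or without 25 °C replicate 1 or 2.

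Storage and starch transcripts held the largest named rise and 2 of the others above 1 log2 unit. GBSS1, the amylose-forming starch synthase bound to starch granules, had log2 signals of 8.93, 8.74 and 8.61 in the 40 °C arrays and 6.08, 6.21 and 7.09 in the 25 °C arrays. The log2 change was 2.30 (SE 0.26, limma adjusted p = 7.5e-05). A second kept probe set of GBSS1 was also higher, by 1.37 (adjusted p = 0.0041). RA14, a seed allergen of the amylase and trypsin inhibitor family, had 10.63, 10.53 and 10.66 at 40 °C and 8.65, 8.99 and 9.87 at 25 °C. The change was 1.44 (SE 0.31, adjusted p = 0.0053), and the 25 °C arrays spread over more than 1 log2 unit while the 40 °C arrays lay close together. PROLM25, a prolamin, had 9.34, 9.10 and 9.39 at 40 °C and 7.56, 7.61 and 8.75 at 25 °C, a change of 1.30 (SE 0.30, adjusted p = 0.0094). Not every probe set of these genes passed the test: 2 other kept probe sets of RA14 changed by 0.42 (adjusted p = 0.48) and 0.71 (adjusted p = 0.14), and 1 of PROLM25 by 0.21 (adjusted p = 0.60).

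Of 9 kept endosperm storage protein genes, 2 were higher, 0 were lower and the median change was 0.32, against 5.44% higher, 7.53% lower and a median of 0.00 over all 11516 genes. The other 7 genes, glutelins, globulin and allergens, changed by −0.01 to 0.79 and did not pass. The mean log2 signal of all 9 by array was 6.89, 6.89 and 7.03 at 40 °C and 5.86, 6.27 and 7.08 at 25 °C, so 25 °C replicate 3 lay as high as the 40 °C arrays and 25 °C replicate 1 lowest. The median change of the list was 0.06 without 25 °C replicate 1 and 0.70 without 25 °C replicate 3. The glutelin GLUA2, for example, had 6.29, 6.54 and 6.42 at 40 °C and 5.82, 6.26 and 7.09 at 25 °C, and these groups overlapped.

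Starch genes moved in both directions. Of 8 kept starch genes, 3 were higher and 1 was lower, with a median of 0.18, against 5.44% higher, 7.53% lower and a median of 0.00 over all genes. SBE, a starch branching enzyme, had 8.12, 7.99 and 8.09 at 40 °C and 7.44, 7.37 and 7.33 at 25 °C, and it rose by 0.68 (SE 0.10, adjusted p = 5.8e-04) with little spread in either group. Of 3 other kept SBE probe sets, 1 rose by 0.68 (adjusted p = 0.0045) and the others changed by −0.05 and 0.16 and were not called. SSII-3, a soluble starch synthase, had 4.67, 4.53 and 4.51 at 40 °C, while all 25 °C arrays lay below log2 4, so the rise was at least 0.57 (adjusted p = 0.0012). SSS1, another soluble starch synthase, fell slightly, by 0.22 (adjusted p = 0.031). That call ended without 40 °C replicate 1 or 3 or 25 °C replicate 1 or 2 (log2 change −0.19 to −0.22, adjusted p 0.080 to 0.12).

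Markers of neighbouring tissues and of the axis itself were read in the same way. Of 9 kept aleurone and scutellum genes, 0 were called by limma (4 had an unadjusted p under 0.05), and the median change was 0.23 (range −0.21 to 0.75). The amylase AMY1.2 had 6.16, 5.92 and 6.53 at 40 °C and 4.85, 5.60 and 5.90 at 25 °C, with a change of 0.75 that did not pass (adjusted p = 0.051). With 25 °C replicate 2 or 25 °C replicate 3 left out, 1 gene of the list was called higher. Of 5 kept embryo and axis markers 0 were called (1 had an unadjusted p under 0.05), with changes between −0.00 and 0.22 and a median of 0.11. Over all genes 5.44% were higher and 7.53% lower, so in lists this short no calls lie near that share. The mean of the 5 by array was 7.65, 7.61 and 7.57 at 40 °C and 7.52, 7.53 and 7.45 at 25 °C. The LEA protein gene Emp1 was near the top of the scale, with 12.38, 12.50 and 12.49 at 40 °C and 12.42, 12.44 and 12.51 at 25 °C. VP1, the maturation regulator, had 8.08, 8.09 and 7.94 at 40 °C and 7.91, 7.92 and 7.63 at 25 °C, and the shoot meristem gene OSH1 had 6.51, 6.51 and 6.41 at 40 °C and 6.16, 6.61 and 6.33 at 25 °C. The root regulator OsWOX11 had 6.01, 6.07 and 5.86 at 40 °C and 5.90, 5.72 and 5.93 at 25 °C. The axis markers were thus present in every array, and transcripts of the endosperm were present in every array as well. Of 4 leaf markers 1 was kept, RBCS, which changed by 0.53 (adjusted p = 0.040), and its call ended without any 1 array except 25 °C replicate 3 (0.42 to 0.60, adjusted p 0.058 to 0.16). The part of the endosperm signal in the rises of GBSS1, RA14 and PROLM25 was not tested.

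**Figure D2:**
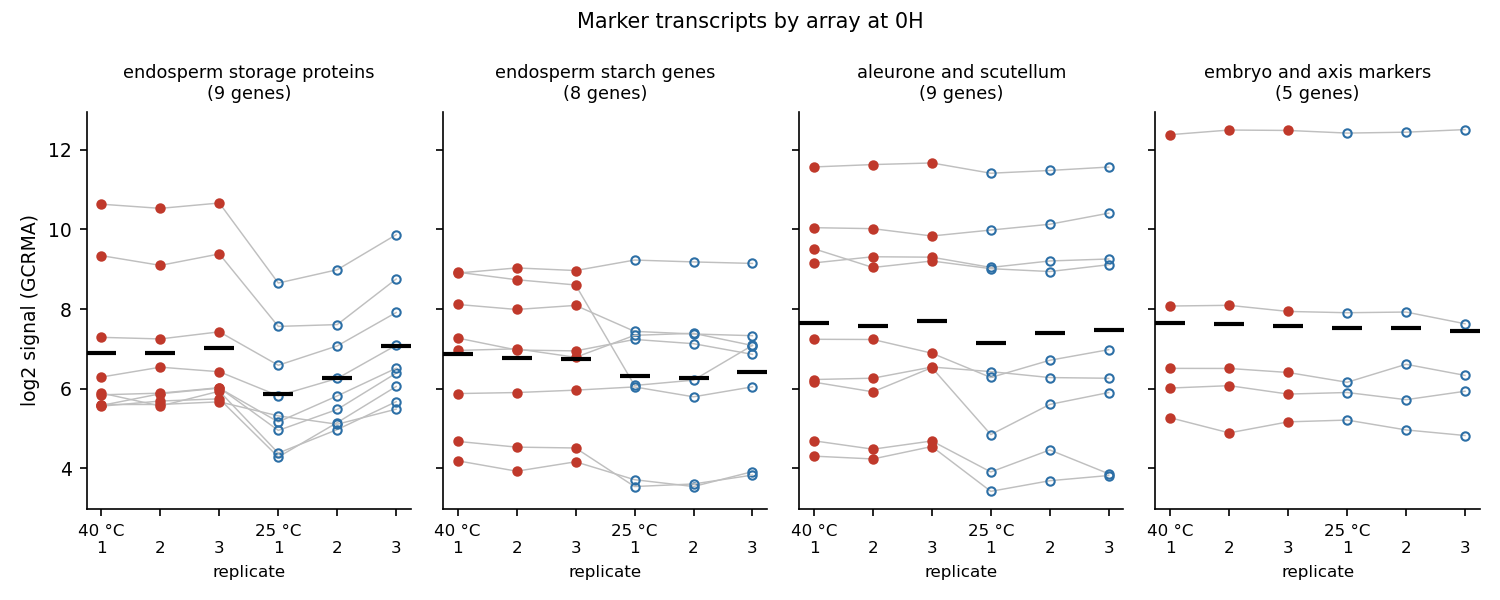
Log2 signals of the kept marker genes in each array at 0H, by list (40 °C replicates filled and left, 25 °C replicates open and right; grey lines join the values of one gene, and the black bar is the mean over the genes). The storage protein list has a mean of 6.89 to 7.03 in the 40 °C arrays and 5.86 to 7.08 in the 25 °C arrays. The embryo and axis markers have a mean of 7.57 to 7.65 in the 40 °C arrays and 7.45 to 7.53 in the 25 °C arrays.

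The other named rises were regulators, transporters and enzymes. ADIPOR1, a membrane protein named after the animal adiponectin receptor, had 5.29, 5.31 and 5.60 at 40 °C and 3.24, 3.66 and 3.91 at 25 °C. It rose by at least 1.40 (adjusted p = 7.5e-05). Its second kept probe set was called in the same direction with all 6 arrays below log2 4, so no size is given for it. BIPP2C1, a protein phosphatase 2C, had 7.35, 7.55 and 7.75 at 40 °C and 6.71, 6.81 and 6.62 at 25 °C, a rise of 0.84 (SE 0.13, adjusted p = 5.9e-04). Groups without overlap were required for naming the 15 largest rises and 15 largest falls. They were also seen in 3068 of all 3129 called probe sets, so the lack of overlap is no separate support for a gene.

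DOF5, a Dof zinc finger factor, had 6.05, 6.18 and 6.02 at 40 °C and 5.47, 5.30 and 5.26 at 25 °C, a rise of 0.74 (adjusted p = 0.0011). GRF4, a growth-regulating factor that promotes grain size, had 6.24, 6.21 and 6.23 at 40 °C and 5.70, 5.62 and 5.59 at 25 °C, a rise of 0.59 (adjusted p = 0.0041). Both regulators showed a within-group SD of 0.11 or less. COPT5.1, of the copper transporter family, had 5.16, 5.23 and 5.10 at 40 °C and 4.67, 4.21 and 4.72 at 25 °C, a rise of 0.63 (adjusted p = 0.0054). LOG, which releases active cytokinin, had 4.76, 4.68 and 4.44 at 40 °C and 4.15, 3.93 and 3.98 at 25 °C, a rise of 0.61 (adjusted p = 0.0074), with both groups close to the filter limit.

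The rise of the phosphate transporter OsPht1;4, 0.76 (adjusted p = 0.027), was less secure. It had 6.11, 6.18 and 6.03 at 40 °C and 5.38, 5.07 and 5.61 at 25 °C, and the call ended when any 1 array except 25 °C replicate 3 was left out (0.62 to 0.80, adjusted p 0.059 to 0.11).

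Of 18 kept DNA repair genes, 2 were higher and 2 were lower, with a median of 0.04, counts near the shares of 5.44% higher and 7.53% lower over all genes. PARP1, a poly(ADP-ribose) polymerase that senses DNA breaks, had 5.91, 6.11 and 6.15 at 40 °C and 5.46, 5.46 and 5.44 at 25 °C, a rise of 0.60 (SE 0.15, adjusted p = 0.014). The call ended without 40 °C replicate 2 (0.57, adjusted p = 0.054) or 40 °C replicate 3 (0.55, adjusted p = 0.059). xrcc1, a scaffold of single-strand break repair, rose by 0.39 (adjusted p = 0.038), a call that ended whichever array was left out (0.36 to 0.44, adjusted p 0.051 to 0.12). Among the falls, POLL, a DNA polymerase of the repair pathways, lay at 3.35, 3.52 and 3.15 at 40 °C and 4.48, 4.20 and 4.17 at 25 °C, a fall of at least 0.28 (adjusted p = 0.0036), or 0.19 without 25 °C replicate 1. FEN1A, the flap endonuclease, fell by 0.44 (adjusted p = 0.038), and its call ended without any 1 array except 25 °C replicate 3 (−0.34 to −0.50, adjusted p 0.052 to 0.16). The break-repair genes KU70, KU80 and MRE11 changed by 0.10, 0.13 and 0.04 and were not called. Counts of the list depended on single arrays: 0 to 1 were higher and 1 to 3 lower when 1 array was left out.

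Genes of the jasmonate and lipoxygenase list were lower where they were called. Jasmonates are lipid-derived hormones of wounding and stress, and 12-oxophytodienoate reductases (OPR) form a family of which one branch serves their synthesis. Of the 24 kept genes of this list, 7 were lower and 0 were higher, and the median change was −0.09. Over all genes 7.53% were lower and the median was 0.00. With 1 array left out, 5 to 7 of the list were lower. Matched by name, the list also held the GATA factor genes GATA17, GATA18 and GATA20, none of them called. Mean log2 signals of the 24 by array were 5.54, 5.61 and 5.57 at 40 °C and 6.04, 5.82 and 5.86 at 25 °C. Replicate 1 at 25 °C thus lay highest. A wider set of 4946 probe sets was called more than 2-fold higher at 4H than at 0H at 40 °C. In it, the median deviation from the other 2 replicates was 0.11 for 25 °C replicate 1 and −0.14 for 25 °C replicate 3. The part of this shift in the falls of the jasmonate and lipoxygenase list was not tested.

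GH3.5, which joins jasmonate to isoleucine in rice, had 4.29, 4.32 and 4.32 at 40 °C and 5.55, 5.58 and 5.05 at 25 °C, a fall of 1.08 (SE 0.14, adjusted p = 2.2e-04). OPR4 had 4.37, 4.33 and 4.28 at 40 °C and 4.77, 5.43 and 5.40 at 25 °C, a fall of 0.88 (SE 0.16, adjusted p = 0.0018). The 40 °C arrays of both genes lay within 0.1 of one another. In the annotation the gene called OPR4 here is also named OPR6, and the gene called OPR10 below is also named OPR4. OPR1 had 3.38, 3.65 and 3.32 at 40 °C and 6.51, 4.70 and 4.28 at 25 °C, a fall of at least 1.16 (adjusted p = 0.0063). Replicate 1 at 25 °C stood far above the other 2, and without it the fall was at least 0.49. With values below log2 4 set to 4, OPR1 was no longer called (adjusted p = 0.059).

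OPR10 showed the same high array, with 3.23, 3.54 and 3.81 at 40 °C and 5.64, 3.98 and 4.0 at 25 °C. Its call (adjusted p = 0.040) ended without any 1 of the 40 °C arrays (log2 change −0.87 to −1.15, adjusted p 0.056 to 0.14) and without 25 °C replicate 1 (−0.47, adjusted p = 0.054). OPR5 was called with both group means below log2 4, so no size is given. OPR7, the member known to serve jasmonate synthesis in rice, changed by −0.05 (adjusted p = 0.78). Whether the called OPR genes serve jasmonate synthesis was not tested.

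Among signalling members, the receptor COI1B fell by 0.31 (adjusted p = 0.014) and the repressor JAZ11 by 0.53 (adjusted p = 0.021). COI1B was no longer called without 40 °C replicate 2 (−0.28, adjusted p = 0.062) or 25 °C replicate 1 (−0.27, adjusted p = 0.060), and JAZ11 without 40 °C replicate 3 (−0.44, adjusted p = 0.088) or 25 °C replicate 3 (−0.47, adjusted p = 0.053). The receptor gene COI1 changed by 0.05, the related gene COI2 by −0.19 (adjusted p = 0.078) and the synthesis gene aoc by 0.23. None of these was called.

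Heat shock and chaperone genes were counted against the shares over all genes, 5.44% higher and 7.53% lower. Of 18 kept small heat shock protein genes, chaperones that bind unfolded proteins and build up in maturing seeds, 0 were called (1 had an unadjusted p under 0.05), with changes between −0.10 and 0.28 and a median of 0.11. Of 10 HSP70, HSP90 and Clp genes 1 was called: CLPD1, a Clp ATPase of the chloroplast, had 5.47, 5.18 and 5.25 at 40 °C and 6.46, 6.10 and 5.93 at 25 °C, a fall of 0.86 (SE 0.13, adjusted p = 6.0e-04). CLPB1 changed by 0.14 and HSP81-1 by 0.11, and neither passed.

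Heat stress factors, the activators and repressors of heat shock genes, were called in both directions: of 19 kept, 4 were lower and 1 was higher, with a median of −0.16, against 7.53% lower, 5.44% higher and a median of 0.00 over all genes. HSFA2D had 7.94, 7.95 and 7.98 at 40 °C and 8.45, 8.53 and 8.68 at 25 °C, a fall of 0.60 (adjusted p = 0.0033). HSFA9, the factor that acts in seed maturation in sunflower and Arabidopsis, had 6.45, 6.38 and 6.37 at 40 °C and 6.86, 6.88 and 6.81 at 25 °C, a fall of 0.44 (adjusted p = 0.0013). These 2 calls held when any 1 array was left out. HSFA2C fell by 0.58 (adjusted p = 0.021), a call that ended without 40 °C replicate 2 or 3 or 25 °C replicate 1 or 2 (−0.51 to −0.54, adjusted p 0.075 to 0.084). A second kept probe set of HSFA2D and of HSFA2C, each with both group means below log2 4, was not called (adjusted p = 0.19 and 0.56). The annotation entries of HSFA2D and HSFA2C also carry the names ARD2 and ARD1. Whether their probe sets measure the heat stress factors was not tested. HSFA2B lay below log2 4 at 40 °C and fell by at least 0.48 (adjusted p = 0.029), and HSFB2C rose by 0.48 (adjusted p = 0.023), while its 2 other kept probe sets changed by 0.25 (adjusted p = 0.25) and 0.06 (adjusted p = 0.85). Both of these calls also ended for some arrays: HSFA2B without any 1 array except 25 °C replicate 3 (adjusted p 0.053 to 0.13), and HSFB2C without 40 °C replicate 1 or 2 or 25 °C replicate 1 or 3 (0.41 to 0.46, adjusted p 0.064 to 0.092). HSFA2A changed by 0.68 and HSFB2A by 0.60, and neither passed. With 1 array left out, 2 to 4 factors were lower and 0 to 2 higher.

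Proteasome genes had 3 lower and 0 higher of 19, with a median of −0.10, against 7.53% lower and 5.44% higher over all genes. The proteasome degrades proteins tagged with ubiquitin. OsRPT1b, an ATPase subunit of its regulatory particle, had 3.85, 4.25 and 3.80 at 40 °C and 5.56, 5.76 and 5.42 at 25 °C, a fall of 1.61 (SE 0.20, adjusted p = 1.4e-04). The related gene OsRPT1 changed by −0.02 (adjusted p = 0.88). The regulatory subunit genes OsRPN11 and OsRPT5a fell by 0.29 (adjusted p = 0.017) and 0.24 (adjusted p = 0.033). Their calls ended for OsRPN11 without 40 °C replicate 2 or 3 or 25 °C replicate 1 (−0.27 to −0.29, adjusted p 0.051 to 0.064), and for OsRPT5a without 40 °C replicate 1 or 2 or 25 °C replicate 1 or 2 (−0.20 to −0.25, adjusted p 0.077 to 0.13). Protein repair genes, the methionine sulfoxide reductases, had 0 calls of 6 (2 had an unadjusted p under 0.05), with a median of −0.03, and 1 was called higher without 25 °C replicate 3. Without 40 °C replicate 2 or 25 °C replicate 1, 1 proteasome gene was called lower, and without 40 °C replicate 1, 1 was called higher.

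Antioxidant enzymes had 3 lower and 1 higher of 19, with a median of −0.09, against 7.53% lower and 5.44% higher over all genes. CAT-A, a catalase, had 7.40, 7.16 and 6.85 at 40 °C and 7.96, 7.88 and 7.72 at 25 °C, a fall of 0.72 (SE 0.15, adjusted p = 0.0046). Its other 2 kept probe sets fell by 0.51 (adjusted p = 0.013) and by at least 0.67 (adjusted p = 6.9e-05), so all 3 pointed the same way. The ascorbate and glutathione cycle enzymes MDHAR2 and GR fell by 0.36 (adjusted p = 0.0060) and 0.32 (adjusted p = 0.0053). PRXIIF, a mitochondrial peroxiredoxin, rose by 0.41 (adjusted p = 0.044), a call that ended without any 1 array except 40 °C replicate 1 (0.35 to 0.47, adjusted p 0.058 to 0.15). The ascorbate peroxidases and superoxide dismutases of the list were not called.

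GRXS5, a glutaredoxin outside the list, had 4.93, 4.89 and 4.97 at 40 °C and 6.45, 5.34 and 5.43 at 25 °C, a fall of 0.81 (adjusted p = 0.019). Its size rested on 25 °C replicate 1, without which the fall was 0.45. The call ended without any 1 of the 40 °C arrays (−0.79 to −0.83, adjusted p 0.050 to 0.061).

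Abscisic acid, the hormone of seed maturation and dormancy, acts through PYL receptors that inhibit PP2C phosphatases and so release SAPK kinases. Of 24 kept genes of its metabolism and signalling, 3 were higher and 2 were lower, with a median of 0.09, against 5.44% higher and 7.53% lower over all genes. The receptor PYL5 had 6.55, 6.41 and 6.34 at 40 °C and 6.97, 6.92 and 6.89 at 25 °C, a fall of 0.49 (adjusted p = 0.0025). The kinase SAPK9 had 7.64, 7.57 and 7.78 at 40 °C and 8.23, 8.14 and 8.18 at 25 °C, a fall of 0.52 (adjusted p = 0.0094). The phosphatase OsPP2C09 had 8.29, 8.27 and 8.25 at 40 °C and 7.89, 7.93 and 7.93 at 25 °C, a rise of 0.35 (SE 0.06, adjusted p = 0.0020). These 3 calls held when any 1 array was left out.

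A second phosphatase, PP2C06, rose by 0.29 (adjusted p = 0.019), and its call ended without 40 °C replicate 2 or 3 or 25 °C replicate 1 (0.27 to 0.28, adjusted p 0.059 to 0.066). ABA8OX2, which breaks abscisic acid down, had 6.89, 7.18 and 6.81 at 40 °C and 6.30, 6.49 and 6.36 at 25 °C, a rise of 0.58 (adjusted p = 0.024). It was no longer called without 40 °C replicate 1 or 2 or 25 °C replicate 1 (0.46 to 0.61, adjusted p 0.051 to 0.11). The 9 other kinases of the list, OsSAPK1 to OsSAPK8 and OsSAPK10, changed by −0.20 to 0.39 and were not called. Without 40 °C replicate 2, only 1 gene of the list was higher. OsPP2C32, a phosphatase outside the list, had 3.97, 3.67 and 4.19 at 40 °C and 5.40, 4.83 and 4.35 at 25 °C, a fall of 0.92 (adjusted p = 0.0083).

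The remaining named falls covered translation, chromatin, sugar use and defence. SGT1 had 7.90, 7.76 and 8.03 at 40 °C and 8.65, 8.70 and 8.63 at 25 °C, a fall of 0.77 (SE 0.07, adjusted p = 2.3e-05). RYMV1, the translation initiation factor eIF(iso)4G that rice yellow mottle virus needs, had 5.96, 6.00 and 5.95 at 40 °C and 6.71, 6.87 and 6.64 at 25 °C, a fall of 0.77 (SE 0.10, adjusted p = 2.3e-04). For both, the gap between the groups was larger than the spread within either.

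JMJ705, a histone H3K27 demethylase, had 4.44, 4.28 and 4.56 at 40 °C and 5.42, 5.20 and 4.89 at 25 °C, a fall of 0.74 (adjusted p = 0.0040). Ehd3, a PHD finger protein that promotes flowering, had 5.64, 5.62 and 5.51 at 40 °C and 6.39, 6.34 and 6.17 at 25 °C, a fall of 0.71 (SE 0.09, adjusted p = 1.8e-04). One other kept Ehd3 probe set fell by 0.65 (adjusted p = 6.4e-04), and one, below log2 4 in all 6 arrays, pointed the other way and did not pass (adjusted p = 0.078). FRK1, a fructokinase, had 5.39, 5.31 and 5.32 at 40 °C and 5.99, 6.07 and 6.14 at 25 °C, a fall of 0.73 (SE 0.11, adjusted p = 6.4e-04). salT, a mannose-binding lectin induced by salt, had 8.53, 8.67 and 8.59 at 40 °C and 9.16, 9.12 and 9.80 at 25 °C, a fall of 0.76 (adjusted p = 0.0039), and a second probe set fell by 1.51 (adjusted p = 4.5e-05). All of these falls were called again when any 1 array was left out.

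**Figure D3:**
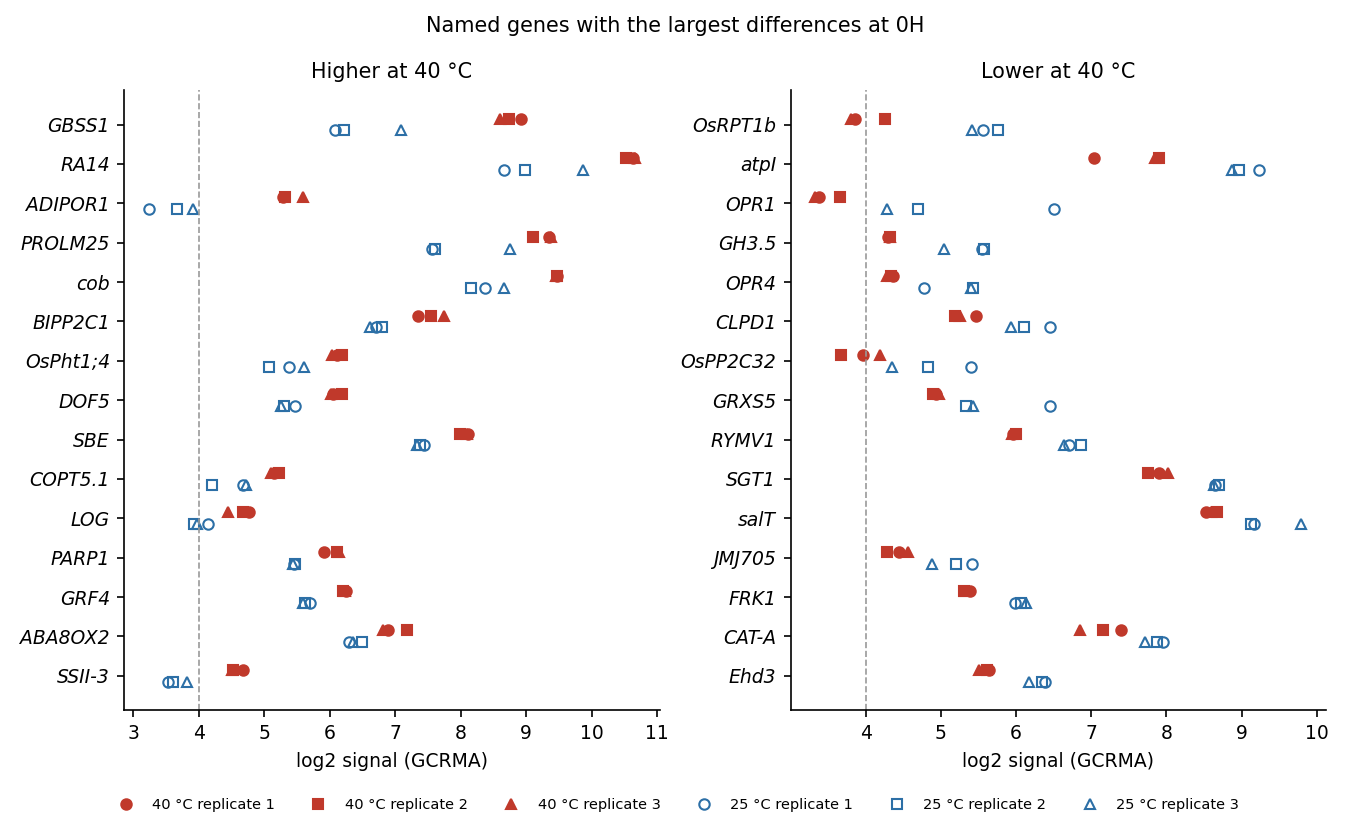
Log2 signals in the 6 arrays at 0H of the 15 largest rises and 15 largest falls among genes with a short name (40 °C filled and drawn above, 25 °C open and drawn below; the dashed line is the filter limit at log2 4). The groups of each gene do not overlap, as the rule for naming them required, and OPR1 and GRXS5 each have one 25 °C replicate far from the other 2.

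The 2 organelle transcripts with a name moved apart. cob, the cytochrome b of mitochondria, had 9.47, 9.47 and 9.45 at 40 °C and 8.37, 8.16 and 8.67 at 25 °C, a rise of 1.07 (SE 0.20, adjusted p = 0.0022). atpI, a subunit of the chloroplast ATP synthase, had 7.04, 7.90 and 7.84 at 40 °C and 9.23, 8.97 and 8.88 at 25 °C, a fall of 1.43 (SE 0.33, adjusted p = 0.0088). Plant organelle transcripts mostly lack the poly-A tails at which labelling for arrays of this type usually starts.

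Over all 11516 genes 5.44% were higher and 7.53% lower, so in a list of this size few calls or none lie near the share of all genes. Dehydrins and other LEA proteins protect dry cells, and of 8 kept genes 0 were called and 0 had an unadjusted p under 0.05, with changes of −0.16 to 0.15. RAB21 had 13.08, 13.13 and 13.09 at 40 °C and 13.11, 13.01 and 13.08 at 25 °C, and RAB16D, the lowest of the 8, had 10.15, 9.92 and 10.04 at 40 °C and 10.13, 10.18 and 10.31 at 25 °C. Ribosomal protein genes had 1 call of 21, RPL5, which fell by 0.28 (adjusted p = 0.0031), and a median of −0.03; 2 were lower without 25 °C replicate 3. Glycolysis and fermentation genes had 1 call of 16, the hexokinase HXK5, which fell by 0.35 (adjusted p = 0.029) and was no longer called without 40 °C replicate 2 or 3 or 25 °C replicate 1 or 2 (−0.29 to −0.35, adjusted p 0.078 to 0.11). Gibberellin genes had 0 calls of 6, and 0 had an unadjusted p under 0.05. RNA decay and RNA binding genes had 1 call of 12, the dicer-like gene DCL4, which rose by 0.36 (adjusted p = 0.048) and was not called whichever array was left out (0.30 to 0.40, adjusted p 0.067 to 0.14). At 3 arrays a group, a gene that was not called had no change detected, which does not show that there was none. On simulated data with the spread of these arrays, 82 of 100 changes of 1 log2 unit and 99 of 100 changes of 2 were recovered. No smaller changes were simulated, and far more probe sets were called here (3129), at median sizes of 0.47 and 0.57. The simulation therefore cannot tell how many smaller changes were missed.

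**Figure D4:**
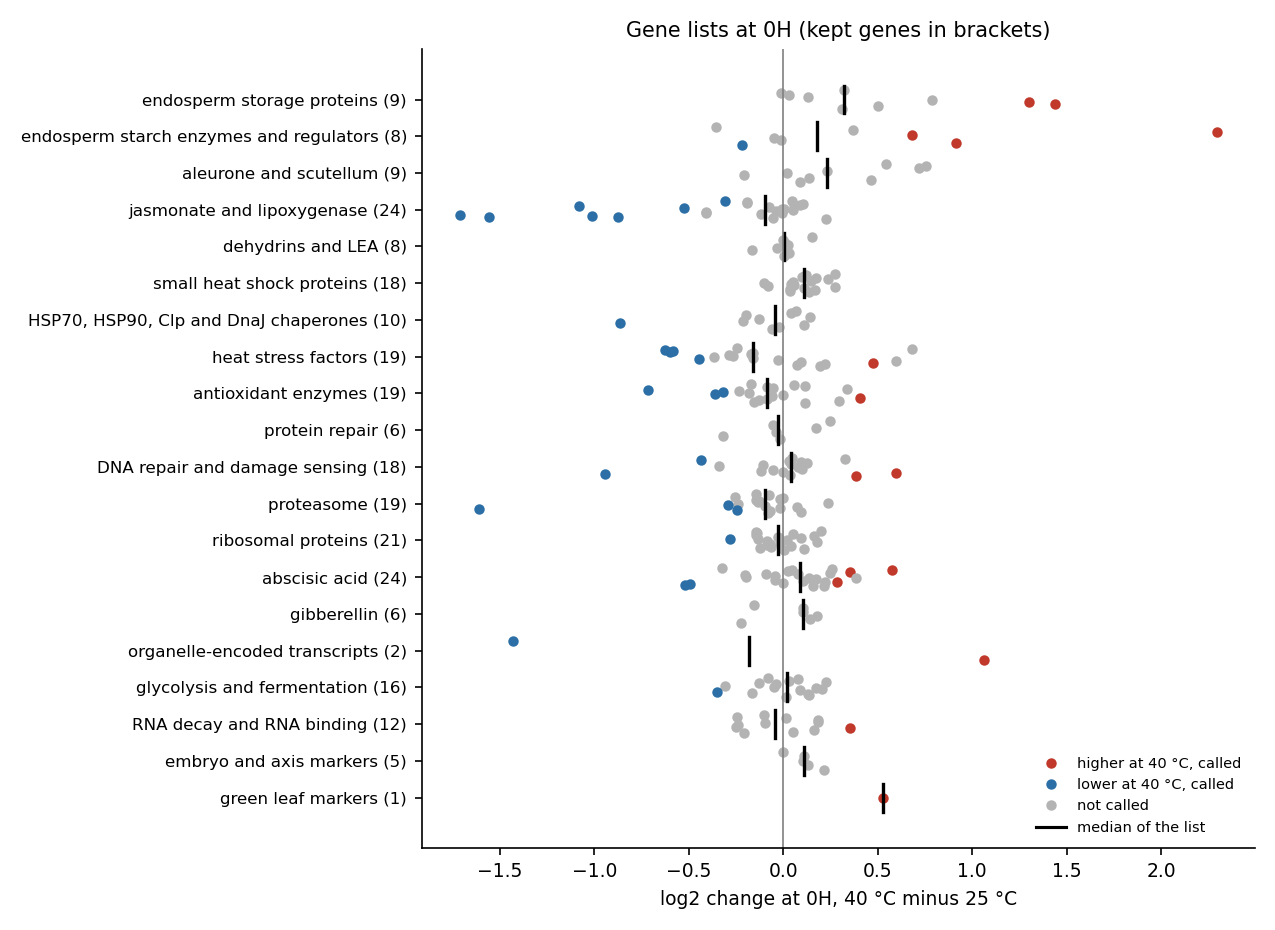
Log2 changes at 0H (40 °C minus 25 °C) of the kept genes of 20 lists, 1 point per gene, with the median of each list as a black bar and called genes in red (higher) or blue (lower). The called genes of the jasmonate and lipoxygenase list all lie below 0, and the LEA genes lie between −0.16 and 0.15.

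Many of the larger differences belonged to probe sets that were not paired with exactly 1 gene. Of the 86 probe sets that were more than 2-fold higher at 40 °C, 68 had no such pair, and of the 308 that were more than 2-fold lower, 154 had none. Of all 57381 probe sets on the array, only 22436 were paired with exactly 1 gene. The share among the kept probe sets was not counted, so these counts are not read as particular to the larger differences. Among probe sets without a gene whose groups did not overlap, the largest rise was that of OsAffx.5291.1.S1_s_at, with 8.86, 8.89 and 9.0 at 40 °C and 5.87, 6.44 and 7.47 at 25 °C (log2 change 2.32, adjusted p = 7.7e-04). The largest fall was that of OsAffx.32196.1.S1_x_at, with 4.37, 6.00 and 2.83 at 40 °C and 8.71, 8.05 and 6.41 at 25 °C (log2 change −3.32, SE 0.79, adjusted p = 0.010). Its lowest array was 40 °C replicate 3, which also had the lowest 18S rRNA signal.

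Probe sets of one gene often disagreed on whether a change passed. Of 1331 genes with at least 2 kept probe sets, 569 had at least 1 called. All probe sets were called one way in 50 of these genes, some were called and the rest were not in 493, and 26 had probe sets called in both directions.

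The arrays labelled 4H gave a second comparison of 40 °C with 25 °C. Its group means used none of the 0H arrays, but the spread in its test was estimated from all 12 arrays, so the calls at 4H are not independent of the 0H arrays. Of the 1058 probe sets higher at 0H, 420 were also higher at 4H (39.7%, against 30.5% of all probe sets) and 368 were lower there (34.8%, against 43.5%). Of the 2071 lower at 0H, 941 were also lower at 4H (45.4%, against 43.5% of all) and 579 were higher there (28%, against 30.5%). The shares among the lower probe sets thus lay near those of all probe sets. Across all 17650 probe sets the changes at 0H and at 4H had a Pearson correlation of 0.07 and a Spearman correlation of 0.05, given as a description since probe sets are not independent replicates. The difference between the 2 temperature effects was itself called in 69.2% of the higher and 66.8% of the lower probe sets, against 65.0% of all. These probe sets were chosen by the 0H effect that this difference subtracts, so the shares are no separate support. Of the 86 probe sets more than 2-fold higher at 0H, 66 were higher again at 4H (76.7%, against 30.5% of all) and 1 was lower. Of the 308 more than 2-fold lower at 0H, 102 were lower again (33.1%, below the 43.5% of all) and 65 were higher (21.1%, against 30.5%). Calls in opposite directions at 0H and 4H numbered 947 in all, and 562 to 631 without 40 °C replicate 1 or 2 or 25 °C replicate 1 or 2.

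Named genes followed both courses. Over all probe sets 30.5% were called higher and 43.5% lower at 4H. Of the 15 named rises, 7 were called higher at 4H as well and 3 lower, and of the 15 named falls, 5 were lower again and 7 higher. LOG and cob changed in the same direction at both labels, by 0.61 and 1.07 at 0H and by 2.41 and 3.33 at 4H. salT and FRK1 were lower at 40 °C at both labels: salT fell by 0.76 at 0H and fell by 3.02 at 4H, and FRK1 fell by 0.73 at 0H and fell by 1.01 at 4H. Other genes were called in opposite directions. CLPD1, OsPP2C32 and HSFA2C were lower at 40 °C at 0H and higher at 40 °C at 4H, by 1.87, 2.63 and 2.84. ADIPOR1 and GRF4 were higher at 0H and lower at 4H, with log2 changes of −1.17 and −0.81. In the jasmonate and lipoxygenase list 7 genes were called at 0H. Of these, GH3.5, OPR10, JAZ11 and COI1B were higher at 4H. OPR4 was lower again (log2 change −0.45, adjusted p = 0.019), and OPR1 and OPR5 were not called there. Of the 18 small heat shock protein genes, none called at 0H, 16 were called higher and 2 lower at 4H, against 30.5% and 43.5% of all probe sets.

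**Figure D5:**
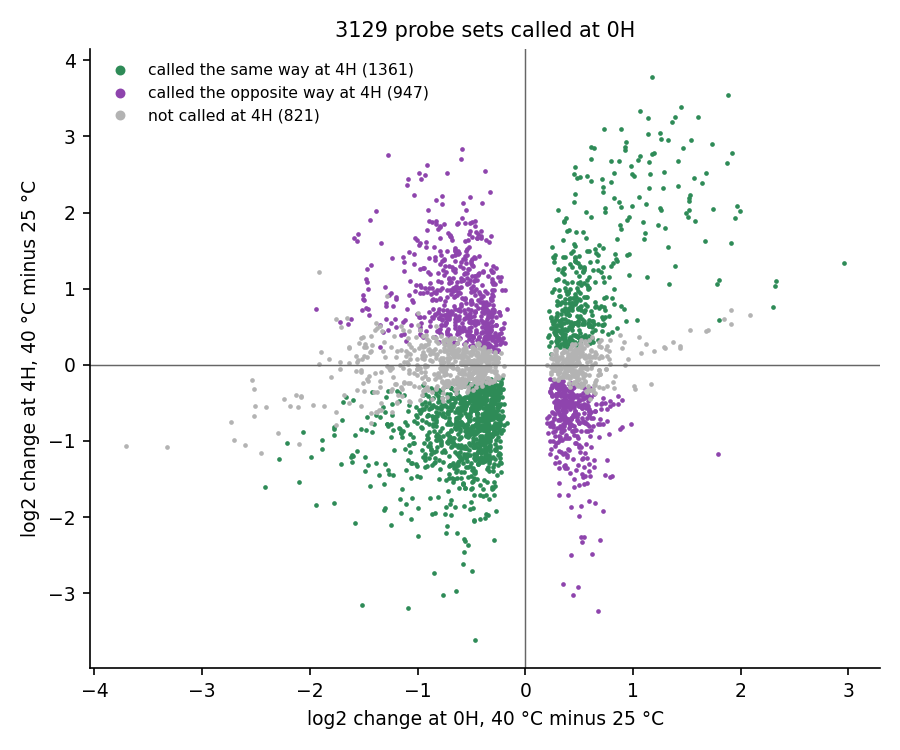
Log2 change at 0H (horizontal axis) and at 4H (vertical axis), each 40 °C minus 25 °C, of the 3129 probe sets called at 0H. Green points (1361) were called the same way at 4H, purple points (947) the opposite way and grey points (821) were not called there, and the largest rises at 0H sit mostly in the green and grey upper right.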

How the data were processed

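The authors deposited log2 signals made with GCRMA (a method that corrects background from probe sequence, normalizes between arrays and summarises each probe set), per the submitters' processing notes, which give no version; that the values are on a log2 scale was read from the values. From 57381 probe sets, 123 controls were left out. limma 3.58.1 in R 4.3.3 was fitted to the 4 group means of all 12 arrays (lmFit, eBayes with trend, 8 residual degrees of freedom), with Benjamini-Hochberg adjustment over 17650 probe sets. Control probe sets were compared by exact permutation tests. A gene's name came from the platform annotation (22436 probe sets with exactly 1 gene, 95 with several) and a RefSeq table of assembly ASM3414082v1, used for names only; 2448 of 17905 genes had a usable short name. Named genes were the 15 largest rises and 15 largest falls among calls whose groups did not overlap, and up to 6 called members of each of 20 lists; sizes were taken with group means below log2 4 raised to 4. Genes of a list that were not called are given as examples, and probe sets without a gene were limited to the largest ones; both were picked after their values were seen. Members, lists and tests were chosen with earlier results of these data known. On simulated data with 100 changes of each size, 9 of 190 calls were false. Alternatives covered the filter, the floor, the normalization, the variance model, the replicate numbers and leaving out arrays. The number of arrays limits the precision. Python 3.11.15, pandas 2.3.3 and matplotlib 3.10.9 made the tables and plots.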

Additional observations from a re-analysis of the deposited data

Results flagged for a closer look

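For 39 of the 55 named genes the difference between 40 °C and 25 °C was not the same at 4H as at 0H by the interaction test of limma (adjusted p under 0.05). All values here are the log2 temperature effect at 4H minus that at 0H. The interaction was called in 65.0% of all probe sets, so such differences were common in these data. The genes were chosen by their effects at 0H, which this difference subtracts. That choice favours a difference opposite to the 0H effect, so the count is no separate support. For 9 of the 39 genes at least 1 of the 4 group means lay below log2 4, so their values are fitted differences of signals as deposited and not measured sizes: ADIPOR1, PARP1, SSII-3, OPR1, OsPP2C32, OPR10, JAZ11, FEN1A and xrcc1. For PARP1, SSII-3 and FEN1A both means at 4H lay below it.

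Among the rises at 0H the effect at 4H was lower for GBSS1 (−1.53), RA14 (−1.22), ADIPOR1 (−2.96), PROLM25 (−1.08), COPT5.1 (−1.33), PARP1 (−0.93), GRF4 (−1.40), SSII-3 (−0.62), PRXIIF (−0.96), xrcc1 (−1.74) and OsPP2C09 (−1.13). It was higher for cob (2.27), BIPP2C1 (0.55), LOG (1.80) and DCL4 (0.75).

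Among the falls at 0H the effect at 4H was higher for OPR1 (2.22), GH3.5 (2.55), OPR10 (2.06), JAZ11 (1.08) and COI1B (0.82), all of the jasmonate and lipoxygenase list. The same held for the heat stress factors HSFA2D (1.61), HSFA2C (3.42) and HSFA9 (2.11) and for the chaperone gene CLPD1 (2.74). It held for the abscisic acid genes SAPK9 (1.12) and PYL5 (2.17), the phosphatase OsPP2C32 (3.55), and the antioxidant and redox genes GRXS5 (2.59), MDHAR2 (0.89) and GR (0.70). It held as well for RYMV1 (1.37), SGT1 (0.68), JMJ705 (2.04), Ehd3 (2.01) and HXK5 (0.59). The effect at 4H was lower than at 0H for salT (−2.25), FEN1A (−0.87), OsRPT5a (−0.27) and RPL5 (−0.83).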

How the results depend on the processing

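Of 55 named genes, 35 kept their call when any 1 array was left out, 16 kept it under all 17 alternatives that could be run for them, and 0 reversed. The count of called probe sets lay between 2079 and 3472 when 1 array was left out, that of higher ones between 589 and 1074 and that of lower ones between 1422 and 2398. Array weights gave 5558 calls (2161 higher, 3397 lower), with weights of 2.66 for 25 °C replicate 2 and 0.44 for 25 °C replicate 3. Leaving out 40 °C replicates 1 and 2 together, the arrays with high poly-A spike-ins, gave 888 (172 higher, 716 lower), from fewer arrays, with the lone 40 °C array assumed to vary like the other groups, and ended 39 named calls. Probe sets called the opposite way at 4H numbered 947, against 618 with no filter, 1925 with array weights, 219 without those 2 arrays and 562 to 1232 with 1 array left out. Those called the same way numbered 1361, against 2379 with array weights and 421 without those 2 arrays, and the cause was not tested. With the replicate number as a block 3498 were called and DCL4 was lost (adjusted p = 0.052). Deviations of same-numbered arrays correlated by 0.03, 0.10 and 0.14, and those of the other pairs by −0.12 to 0.03. For 40 °C replicates 2 and 3 the same-numbered array correlated best, and 40 °C replicate 1 correlated best with 25 °C replicate 2 (0.03). The labels do not say that the numbers pair arrays, so they were not read as pairs, and these values do not settle it. Quantile normalization gave 3106 calls and median centring 3143.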
